A study of Mus musculus with 2 samples.

Results

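Type 2 conventional dendritic cells (cDC2) were taken from 2 single-cell libraries of injured mouse kidney by a rule on unique molecular identifiers (UMIs, 1 per captured transcript). Barcodes entered with a minimum of 500 UMIs and 200 genes and no more than 50% mitochondrial UMIs (kept barcodes). Members were chosen by the UMIs of named genes: a kept barcode was a member when H2-Aa and H2-Ab1 together had at least 10 UMIs, Cd209a and Flt3 together at least 1, the complement genes C1qa, C1qb and C1qc together fewer than 10, and Xcr1, Clec9a, Cd3e and Cd79a none. The rule found 160 members among 19478 kept barcodes: 63 of 9452 in the control library and 97 of 10026 in the haplodeficient library. These values chose the members, so the levels of these genes are a description and nothing is supported with them.

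The control library came from mice labelled Cre-, and the haplodeficient library from mice labelled Cdh5-CreERT2; Phd3f/+, which carry 1 floxed allele of Phd3 (Egln3, an oxygen-sensing prolyl hydroxylase) and a tamoxifen-activated Cre driven by the promoter of the endothelial cadherin Cdh5. Whether the controls carried the floxed allele is not stated. In both groups 1 renal artery had been clamped and released (ischemia-reperfusion injury), tamoxifen was then injected 4 times, and the injured kidney was collected on day 14. There was 1 library a group and both carry batch label 1. The number of animals behind each library, their age and sex are not stated. With 1 library a group no test between genotypes exists: values are set side by side, and the 95% intervals (exact Poisson for counts, exact Clopper-Pearson for shares) cover counting error only.

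Conventional dendritic cells take up antigen in tissue, load peptides on MHC class II molecules and carry them to the draining lymph node, where they prime T cells. The type 2 lineage depends on the cytokine receptor Flt3 and the transcription factor IRF4, presents to helper T cells, and in mouse often carries the lectins Cd209a, Mgl2 and Clec10a, while the type 1 lineage (cDC1) depends on IRF8 and carries Xcr1 and Clec9a. In kidney these cells lie in the interstitium among a far larger population of macrophages that also display MHC class II, which is why complement C1q transcripts are used to set the macrophages apart.

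The stretches upstream of 4 genes that the description turns on are given in lower case from RefSeq on GRCm38.p6, 5′ to 3′ on the gene's strand. H2-Aa (chr17:34287824-34288073, minus strand) is a class II gene of the rule, and H2-Eb1 (chr17:34305617-34305866, plus strand) a class II gene outside it. In both, capitals mark ATTGG or its complement CCAAT, the core of the CCAAT box (Y box) of class II promoters. In Retnla (chr16:48842359-48842550, plus strand) and Ccl17 (chr8:94810203-94810452, plus strand), genes known as targets of interleukin-4, capitals mark TTC and GAA set 4 bases apart, the spacing that STAT6 prefers. The Retnla window was shortened to 192 bases so that it ends before the annotated transcript start. Of 8 genes looked up, 6 had a promoter entry.
H2-Aa: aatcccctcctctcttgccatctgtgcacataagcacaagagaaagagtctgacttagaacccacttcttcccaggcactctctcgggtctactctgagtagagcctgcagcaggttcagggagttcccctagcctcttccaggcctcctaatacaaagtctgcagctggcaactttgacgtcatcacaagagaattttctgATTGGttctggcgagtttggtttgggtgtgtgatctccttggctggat
H2-Eb1: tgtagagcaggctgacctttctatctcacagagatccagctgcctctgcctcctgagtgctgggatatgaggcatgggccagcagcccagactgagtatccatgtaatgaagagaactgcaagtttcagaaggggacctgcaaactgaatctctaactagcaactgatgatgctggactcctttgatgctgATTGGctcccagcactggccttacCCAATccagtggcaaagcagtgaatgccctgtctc
Retnla: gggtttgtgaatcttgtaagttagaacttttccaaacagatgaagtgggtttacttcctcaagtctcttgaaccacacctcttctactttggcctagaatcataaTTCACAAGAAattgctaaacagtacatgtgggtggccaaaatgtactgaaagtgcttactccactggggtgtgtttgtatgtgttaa
Ccl17: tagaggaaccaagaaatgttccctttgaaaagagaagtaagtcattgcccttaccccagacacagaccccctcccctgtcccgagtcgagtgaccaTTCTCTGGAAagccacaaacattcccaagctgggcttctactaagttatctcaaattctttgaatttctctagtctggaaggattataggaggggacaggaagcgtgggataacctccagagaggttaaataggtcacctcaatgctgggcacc
ATTGG, read on either strand, began 48 bases upstream of the H2-Aa start, and H2-Eb1 had 1 match at 59 and another at 35 bases. The STAT6-type motif, which has the same form on both strands, began 145 bases upstream of the Retnla start and 154 bases upstream of the Ccl17 start. Among 32851 windows of 250 upstream bases, 33.8% held ATTGG on some strand and 5.85% held the STAT6-type motif. The matches describe the letters only.

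The members' median depth was close in both libraries, while that of the libraries as a whole differed. The control members had 726581 UMIs in all, with a median of 8315 (3181 to 48358) a member and a median mitochondrial share of 3.08%. The haplodeficient members had 917792 UMIs, with a median of 7974 (1271 to 49075) and a mitochondrial share of 1.65%. The median over all kept barcodes was 9160 UMIs and 10.2% for the control against 5861.5 UMIs and 2.72% for the haplodeficient library. The libraries shared 28 kept barcodes by sequence, none of them a member in both. Just inside the class II threshold (10 to 19 UMIs) lay 3 members in each library and just outside (5 to 9 UMIs) 3 and 5 barcodes. Exactly 1 UMI of Cd209a and Flt3 admitted 18 control and 27 haplodeficient members, while 494 and 389 barcodes met every other criterion with none. No barcode lay just above the C1q limit (10 to 14 UMIs), and 4 members in each library lay just below it (5 to 9).

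Some members carried transcripts of another cell. Lists of markers for 12 other cell types were read in every member, and a member was called mixed with at least 10 UMIs of the tubule, endothelial or stromal list or at least 3 of Siglech, a marker of plasmacytoid dendritic cells. This criterion was set after the values were seen. It marked 12 control members (8 by tubule, 2 by endothelial genes, 3 by Siglech, with 1 counted under both tubule and endothelium) and 8 haplodeficient members (4 by tubule, 1 by stroma, 3 by Siglech). The mixed members had a median of 24446.5 UMIs in the control library and 12751 in the other, and held 42.4% and 18.3% of all member UMIs. The tubule-mixed members had 104 to 370 UMIs of the 10 tubule genes in the control library and 11 to 896 in the haplodeficient library, while the members that were not mixed had at most 8 and 5. Since the mixed share differs between libraries, list counts and medians are given with and without these members, and n is then 51 and 89. Levels of single genes are mostly given without them. The set without them still holds 0 control and 3 haplodeficient members that a doublet score marked (see the processing below).

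**Figure D1:**
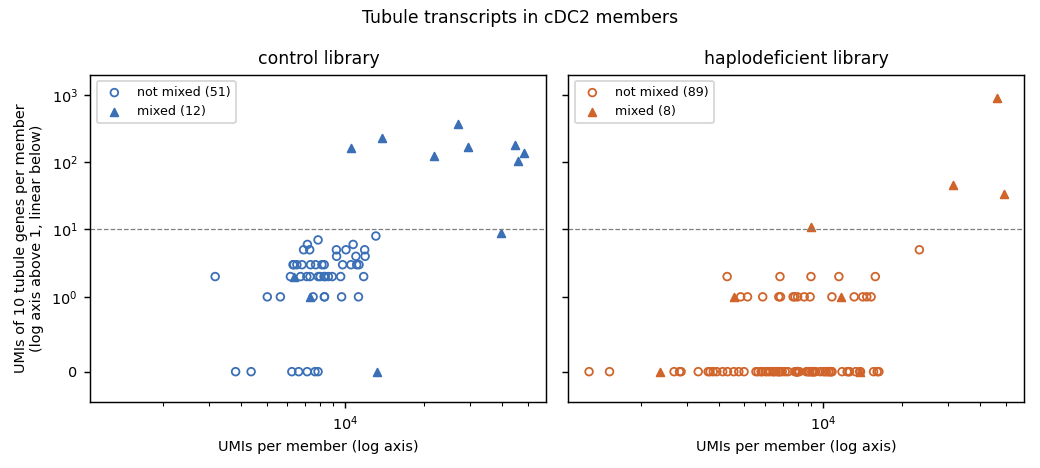
Each point is 1 member, with its total UMIs (log axis) against its UMIs of 10 tubule genes (log axis above 1, linear below) in the control (left) and haplodeficient (right) library. Filled triangles are mixed members, and the dashed line marks 10 UMIs; apart from the mixed members, the control points reach 8 and the haplodeficient points 5.

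The label was read on genes outside the rule, with the rule's own genes given as a description and mixed members left out. Cd209a, a C-type lectin of the rule, stood at 559 counts per 1000000 UMIs (CPM) in the control and 484 in the haplodeficient members, against 9.48 and 19.7 in cDC1 and 1.52 and 1.17 in C1q-high macrophages. Irf4 stood at 129 and 124 CPM, against 1.18 and 30.1 in cDC1 and 5.96 and 4.60 in the macrophages. Zbtb46, a transcription factor of conventional dendritic cells, stood at 86.0 and 89.4 CPM, near its 105.5 and 67.2 in cDC1 and above its 6.32 and 4.91 in the macrophages. Irf8, at 33.5 and 117 CPM, was far below its 982 and 1007 in cDC1. The macrophage gene Mertk was 7.17 and 1.33 CPM, C1qa, held low by the rule, was 14.3 and 12.0 CPM, and Lyz2, a lysozyme of myeloid cells, was 492 and 543 CPM against 11705 and 14466 in the macrophages. Not every macrophage marker was as low as Mertk: Csf1r was 88.4 and 84.0 CPM, against 420 and 367 CPM in the macrophages. Mrc1, on the same list of macrophage markers, was higher still (below). The groups set beside the members were 76 cDC1, 930 macrophages and 17 classical monocytes in the control library and 76, 1584 and 77 in the haplodeficient library, built from like UMI rules.

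**Figure D2:**
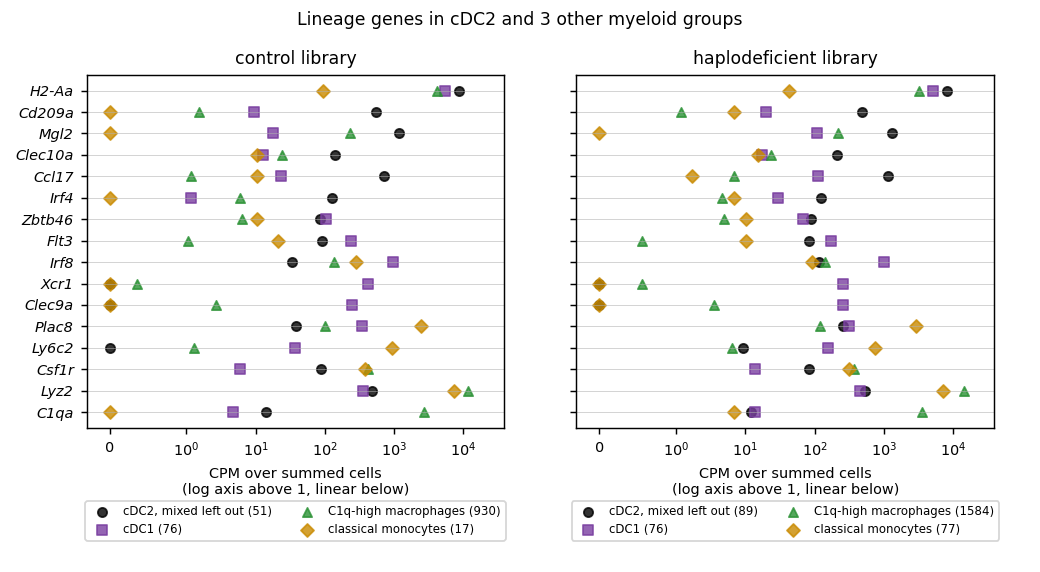
CPM of 16 lineage genes (log axis above 1, linear below), summed over the cells of each group in the control (left) and haplodeficient (right) library, with the number of cells in the legend. Cd209a, Mgl2, Clec10a, Ccl17 and Irf4 are highest in cDC2, Irf8 in cDC1, Plac8 and Ly6c2 in monocytes, and Lyz2 and C1qa in macrophages.

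With mixed members left out, T cell markers summed to 0 CPM in the control and 1.33 in the haplodeficient members, neutrophil markers to 4.78 and 13.3, NK cell markers to 7.17 and 4.00 and stromal markers to 0 and 5.34. Cd3e and Cd79a were 0 by the rule. The mixed criterion itself limited Siglech and the tubule, endothelial and stromal lists, so their low levels here follow from it in part. Macrophage markers summed to 1047 and 791 CPM over 13 and 12 of 14 detected genes, with Gpnmb at 0 in both libraries. Monocyte markers summed to 531 and 600 CPM, with Ccr2 highest (370 and 288 CPM), while Chil3, Vcan and Hp were at 0 in both. The next gene was Fn1 in the control library (115 CPM, in 4 members) and Plac8 in the haplodeficient library (256 CPM). B cell markers summed to 93.2 and 48.0 CPM with Cd79a, Ms4a1 and Pax5 at 0, and plasmacytoid markers to 210 and 185 CPM with Siglech, Ly6d and Cox6a2 at 0. Type 1 dendritic cell markers, a list that includes Irf8, summed to 368 and 468 CPM with Xcr1 and Clec9a at 0 by the rule, and markers of group 2 innate lymphoid cells and granulocytes to 198 and 180 CPM with Gata3, Cpa3 and Mcpt8 at 0. Tubule markers summed to 318 and 40.0 CPM, endothelial markers to 31.1 and 21.3 CPM. The level of a tubule gene in the members relative to free RNA (barcodes of 1 to 100 UMIs), taken as the median over the 10 tubule genes, was 31.4% for control and 16.3% for haplodeficient members, and 1.82% and 0.319% without the mixed members. The values without mixed members follow in part from the mixed criterion, which used the same tubule genes. The part of these other transcripts in the differences between libraries was not tested.

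Genes were ranked by their level in the members over that in all other kept barcodes. The 20 with the highest ratio, taken as the lower of both libraries, were Cd209a, Ccl17, Mgl2, H2-Oa, Adam23, Ccl22, Tnip3, Ccr7, H2-DMb2, Clec4b1, Klrd1, Plbd1, Klri1, Clec10a, Flt3, Cfp, Mcemp1, Ciita, Ear2 and Irf4. The ratio ran from 70.8-fold for Cd209a to 11.5-fold for Irf4 in the lower library. H2-Oa, a chain of the class II loading regulator, was 24.9-fold higher, Adam23, a membrane protein of the disintegrin family, 23.7-fold, and Tnip3, an inhibitor of NF-kappaB signalling, 18.1-fold. Klrd1 and Klri1, receptors named from natural killer cells, were 15.6-fold and 13.4-fold higher. These ratios follow from the choice of cells and are a description. Several of these genes were also high in cDC1: Flt3 was 238 and 173 CPM there against 85.3 and 81.7 CPM in all members, Plbd1 832 and 903.5 against 351 and 533 CPM, Ciita 166 and 104 against 168 and 215 CPM, and H2-Oa 174 and 155 against 172 and 185 CPM.

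Members were 0.667% of kept barcodes (0.513 to 0.852) in the control library and 0.967% (0.785 to 1.18) in the other, and 0.540% and 0.888% without mixed members. The order depended on the denominator. Among barcodes with a Ptprc (CD45) UMI, members were 58 of 1651 (3.51%, 2.68 to 4.52) in the control and 89 of 4029 (2.21%, 1.78 to 2.71) in the haplodeficient library. Among barcodes with at least 10 class II UMIs they were 63 of 1468 (4.29%, 3.31 to 5.46) and 97 of 1783 (5.44%, 4.43 to 6.60). The share of all kept barcodes was thus larger in the haplodeficient library and the share of Ptprc barcodes, of which the control library has fewer, larger in the control library. The intervals of the libraries overlap for each of these 3 denominators, and do not overlap for the share of kept barcodes without mixed members (0.402 to 0.709 and 0.713 to 1.09).

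Retnla, a small secreted resistin-like protein induced by type 2 cytokines, was nearly absent from the members. It had 3 UMIs, all in 1 of 63 control members (4.13 CPM, 0.851 to 12.1), and 2 UMIs in 2 of 97 haplodeficient members (2.18 CPM, 0.264 to 7.87). The ratio of haplodeficient to control was 0.528 with an interval of 0.0441 to 4.61, so no difference was detectable at this depth. Free RNA held Retnla at 4.71 CPM in the control library, within the interval of the members, and at 55.1 CPM in the other, above it. Without mixed members Retnla was 7.17 CPM (1.48 to 21.0) and 2.67 CPM (0.323 to 9.64), from the same 3 and 2 UMIs. Mucl1, a mucin-like secreted protein, had 1 UMI in 1 control member (1.38 CPM) and 4 UMIs in 1 haplodeficient member (4.36 CPM), with a ratio of 3.17 and an interval of 0.313 to 156. Without mixed members it had 0 and 4 UMIs. After thinning each member to 1000 UMIs, Retnla was seen in 1 control member and in no haplodeficient member.

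The Retnla transcripts of these libraries lay in other barcodes. All kept barcodes held 757 Retnla UMIs in the control library and 6150 in the other. Barcodes high in class II with at least 10 C1q UMIs held 476 (62.9%) and 5574 (90.6%) of them, and barcodes high in class II, low in C1q and without Cd209a or Flt3 held 261 (34.5%) and 472 (7.67%). At least 3 Retnla UMIs were found in 30 control and 118 haplodeficient barcodes, of which Cd209a was detected in 2 and 1, and Flt3 in 0 and 1. The same barcodes had the macrophage and monocyte genes Lyz2 in all 30 and all 118, C1qa in 26 and 107, Ccr2 in 27 and 86, the matrix gene Fn1 in 25 and 91, Ear2 in 26 and 74 and Mgl2 in 21 and 90. Retnla stood at 56.6 CPM in control and 328 in haplodeficient C1q-high macrophages. Among cDC1 it had 0 UMIs in the control library and 143 in the other, in 2 of 76 cells.

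Mucl1 was held by few barcodes. Its 928 UMIs in the haplodeficient library lay in 16 kept barcodes, of which the highest had 351 and the next 335 UMIs, together 73.9%. The control library had 8 Mucl1 UMIs in 3 barcodes. Barcodes high in both class II and C1q held 863 (93.0%) of the haplodeficient UMIs. Of 9 haplodeficient barcodes with at least 3 Mucl1 UMIs, 7 also had Retnla and 1 had Cd209a. Because 3 members in all had a Retnla UMI, the genes most like Retnla within the members could not be ranked. Retnla lies at chr16:48842551-48844461 and Mucl1 at chr15:103751919-103755469 (GENCODE M21, GRCm38), both protein-coding.

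**Figure D3:**
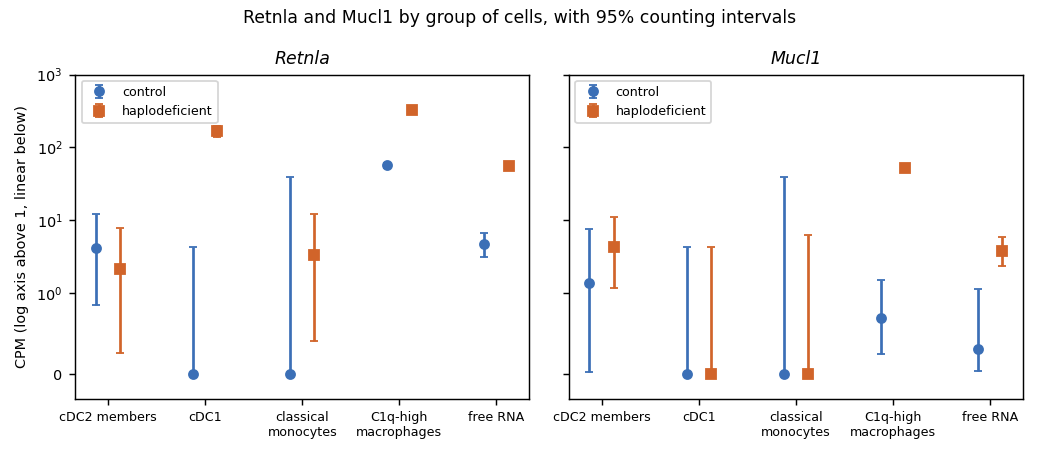
CPM of Retnla (left) and Mucl1 (right) on an axis that is logarithmic above 1 and linear below, in 4 groups of cells and in free RNA, with exact Poisson 95% intervals; circles are the control and squares the haplodeficient library. Retnla is 4.13 and 2.18 CPM in cDC2 members against 56.6 and 328 CPM in C1q-high macrophages.

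Across genes, more were lower than higher in the haplodeficient members, and fewer met the size rule downward once the mixed members were left out. Genes averaging 50 CPM or more over both libraries with 30 or more UMIs were eligible. A gene met the size rule when its log2 ratio of haplodeficient over control, after adding 5 CPM, was at least 1 in either direction and the Poisson intervals did not overlap. With all members, 269 of 3135 eligible genes (8.58%) met it: 31 higher (0.989%) and 238 lower (7.59%) in the haplodeficient library. With mixed members left out, 119 of 2753 (4.32%) did: 26 higher (0.944%) and 93 lower (3.38%). In both sets the same 11 genes were higher and the same 24 lower. With the highest member of each gene left out in each library, 183 of 2775 met it (6.59%), 30 higher (1.08%) and 153 lower (5.51%). Over all eligible genes the log2 ratio had a median of -0.08 with all members and -0.09 without mixed members. With all members 56.5% of genes were lower, and without mixed members 56.2%. Under median-of-ratios scaling of all members the share was 49.8%. That scaling centres the ratios of these genes on their median, so its share follows from the scaling and is no result.

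Most called genes lay on the same side in the macrophages of the same libraries. Of the 26 genes higher without mixed members, 25 were also higher in haplodeficient C1q-high macrophages (median log2 ratio 0.37), and of the 93 lower genes 74 were also lower there (median -0.32), while 51.4% of all eligible genes were lower in macrophages (median -0.01). Called genes also differed in length. The median gene span in GENCODE M21 was 6.44 kb for the higher and 63.1 kb for the lower genes, against 26.1 kb for all eligible genes. Both measures were added after the values were seen. The mitochondrial share and the tubule transcripts moved with the libraries too (above), and the part of RNA quality in these counts was not tested. With 1 library a group, library and genotype cannot be told apart.

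**Figure D4:**
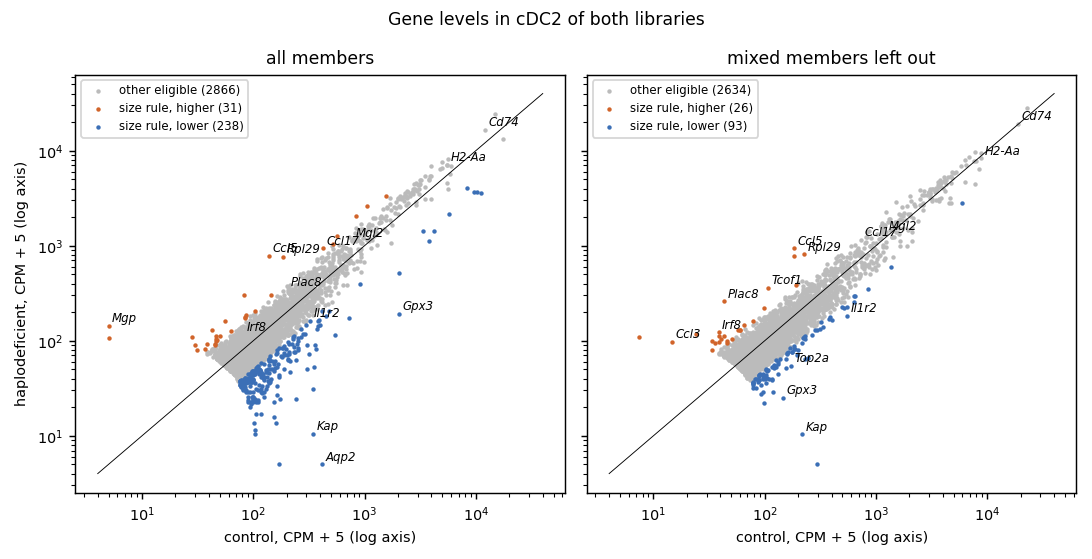
Each point is an eligible gene, with its CPM + 5 in control (x) and haplodeficient (y) cDC2 on log axes, for all members (left) and with mixed members left out (right); the line marks equal levels, and colours mark genes that met the size rule. The lower genes number 238 on the left and 93 on the right, while Cd74, H2-Aa and Mgl2 lie near the line without mixed members.

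Several differences rested on a single member. Aqp2, the water channel of collecting duct, had 297 of 298 control UMIs in 1 member that was mixed. Mgp, a matrix protein, had 126 of 127 haplodeficient UMIs in 1 member, and Spink12 all 93 in 1 member. With mixed members left out, Spp1 (osteopontin) had 507 of 575 haplodeficient UMIs in 1 member, Cryab, a small heat shock protein, 65 of 79, Igfbp7 79 of 84 and Cxcl10 55 of 69. Kap, a proximal tubule gene, was different: 88 control UMIs against 4 haplodeficient UMIs were left without mixed members, with at most 5 in any member, and Kap stood at 7532 and 407 CPM in the other kept barcodes.

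Some higher genes were detected in many members. Rpl29, a ribosomal protein, stood at 222 CPM (43 of 51 members) in the control and 807 CPM (88 of 89) in the haplodeficient library without mixed members, a ratio of 3.63 (2.92 to 4.57). Rpl29 was also higher in all other kept barcodes (log2 ratio 2.11) and in free RNA (84.7 and 484 CPM). Tcof1, a nucleolar factor of ribosome synthesis, stood at 103 and 354 CPM (ratio 3.44, 2.49 to 4.87), with 19 of 51 and 36 of 89 members above 0 and a highest member of 10 and 47 UMIs. Plac8, a small protein known from monocytes and plasmacytoid cells, stood at 38.2 CPM in 5 of 51 control members and 256 CPM in 29 of 89 haplodeficient members (ratio 6.70, 4.02 to 12.0), with at most 6 and 18 UMIs in any member. With all members, Plac8 was 198 and 337 CPM and did not meet the size rule. Plac8 was 131 and 318 CPM in all other kept barcodes and 75.3 and 286 CPM in free RNA. The part of free RNA in the members' levels of Rpl29 and Plac8 was not tested.

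Class II genes were higher in the haplodeficient members with the mixed members in, and close in both libraries without them. H2-Aa, the class II alpha chain, had 3 to 126 UMIs a control member (median 60) and 7 to 160 a haplodeficient member (median 66), and the ranges overlapped between 7 and 126 UMIs. With all members 13 of 14 eligible class II genes were higher in the haplodeficient library (list median 0.38), with Ifi30, a thiol reductase of antigen processing, meeting the size rule upward (566 and 1258 CPM) and Lgmn, an endosomal protease, downward (264 and 127 CPM). Without mixed members 7 of 15 were higher and none met the rule (list median -0.04, beside -0.09 over all genes). The levels were then 8785 and 8339 CPM for H2-Aa (ratio 0.949, 0.911 to 0.989), 8875 and 9565 for H2-Eb1 (ratio 1.08, 1.04 to 1.12), 18881 and 19343 for the invariant chain Cd74 (ratio 1.02, 0.997 to 1.05), and 258 and 239 CPM for the transactivator Ciita. Ifi30 was 858 and 1424 CPM (ratio 1.66, 1.47 to 1.88).

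Class I genes were slightly higher in the haplodeficient members in both sets. With all members 10 of 10 eligible genes were higher (median 0.57) and without mixed members 10 of 11 (median 0.25), none meeting the size rule. Psme1, an activator subunit of the proteasome, stood at 342 and 550 CPM and Psmb8, a subunit of the immunoproteasome, at 540 and 760 CPM without mixed members. The heavy chains H2-D1 and H2-K1 stood at 1157 and 1486 CPM and at 1099 and 1189 CPM, and the light chain B2m at 1391 and 1225 CPM. Psme1 and Psmb8 were higher in haplodeficient C1q-high macrophages as well, with log2 ratios of 0.33 and 0.42.

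Genes known from the lineage differed in direction from one to another. Cd209a had 0 to 34 UMIs a control member (median 2, 46 of 63 above 0) and 0 to 29 a haplodeficient member (median 3, 78 of 97), with a ratio of 1.12 (0.951 to 1.31) over all members and 0.866 (0.733 to 1.03) without mixed members. Mgl2, a galactose-binding lectin, stood at 764 and 1117 CPM over all members, and at 1207 and 1339 CPM (ratio 1.11, 0.996 to 1.24) without mixed members. Clec10a, a related lectin, stood at 141 and 212 CPM (ratio 1.504, 1.11 to 2.06). Among 17 eligible identity genes, 13 were lower in the haplodeficient members without mixed members (median -0.18), beside 56.2% of all eligible genes (median -0.09). Only Ifitm1 met the size rule, at 117 and 46.7 CPM. With all members 10 of 16 were higher (median 0.06) and none met it. Tnip3 was 1040 and 627 CPM and Adam23, which is outside that list, 373 and 164 CPM without mixed members (ratio 0.440, 0.345 to 0.561), in 33 of 63 and 41 of 97 members overall.

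Among 19 eligible transcription factors 15 were lower in the haplodeficient members without mixed members (median -0.23), beside 56.2% of all eligible genes (median -0.09). Irf8 alone met the size rule, in the higher direction. With all members 10 of 18 were lower (median -0.06). Irf8 stood at 33.5 CPM in 9 of 51 control members and 117 CPM in 17 of 89 haplodeficient members (ratio 3.51, 1.98 to 6.68), with 23 and 20 of the 88 haplodeficient UMIs in the highest members. Most of these 88 UMIs lay in members admitted by Flt3 alone (below). With all members Irf8 was 75.7 and 110 CPM and did not meet it. Irf4 (129 and 124 CPM), Zbtb46 (86.0 and 89.4 CPM) and Spi1 (PU.1, 432.5 and 402 CPM) were close. Id2, an inhibitor of basic helix-loop-helix factors, was 330 and 191 CPM and Zeb2, a repressor active in type 2 cells, 643 and 439 CPM. Receptors of growth factors were close as well: of 4 eligible genes, Flt3 was 90.8 and 82.7, Csf1r 88.4 and 84.0, Csf2ra 189 and 209 and Csf2rb 282 and 231 CPM. Their list median was -0.10, and 0.18 with all members.

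Genes of the interleukin-4 and STAT6 axis split within the list. Without mixed members 5 of 11 eligible genes were higher in the haplodeficient library (median -0.24) and none met the size rule, while with all members 5 of 9 were higher (median 0.55) and Ccl17 met it. The receptor chain Il4ra was 66.9 and 56.0 CPM, its partner Il13ra1 105 and 74.7, the kinase Jak1 179 and 129 and Stat6 itself 59.7 and 49.4 CPM. The target Mrc1, a mannose receptor that is also on the list of macrophage markers, was 585.5 and 363 CPM. None of the 7 resistin-family and mucin-like genes was eligible.

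Among the function lists, chemokines held the most genes that met the size rule in the higher direction. Without mixed members 6 of 10 eligible chemokines were higher in the haplodeficient members (median 0.34), and Ccl3, Ccl5 and Cxcl10 met the size rule upward, beside 0.944% of all eligible genes. With all members 7 of 9 were higher (median 0.37), and Ccl5, Ccl17 and Cxcl10 met it, beside 0.989% of all eligible genes. Cxcl10 rested on 1 haplodeficient member with 55 of 69 UMIs without mixed members. Ccl5, which attracts T cells and monocytes, had 97 UMIs over 15 of 63 control members and 715 over 16 of 97 haplodeficient members, with 405 in a single member and 135 in the next. Its ratio was 5.84 (4.71 to 7.29), and its log2 ratio was 2.50 with all members and 1.56 with the highest member left out in each library. With at least 2 UMIs of Cd209a and Flt3 asked of a member, it was -0.64. Ccl5 was 51.4 and 279 CPM in all other kept barcodes and 47.3 and 337 CPM in free RNA. Ccl3, an inflammatory chemokine, had 4 UMIs in 4 of 51 and 69 UMIs in 16 of 89 members, without mixed members, at 9.56 and 92.1 CPM (ratio 9.63, 3.596 to 36.3). Ccl3 was also 27.8 and 111 CPM in all other kept barcodes, and free RNA held it at 24.4 and 132 CPM, above the members' levels. Without mixed members the median tubule gene stood at 1.82% and 0.319% of its free-RNA level (above). The part of free RNA in Ccl5 and Ccl3 was not tested. Ccl4 was 483 and 676 CPM and Ccl9 425 and 285.5 CPM.

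Ccl17 and Ccl22, ligands of CCR4 on T cells, behaved apart from each other. Ccl17 had 305 UMIs in 16 of 63 control members, 168 of them in 1 member, and 862 UMIs in 41 of 97 haplodeficient members, 266 of them in 1 member. It stood at 420 and 939 CPM over all members (ratio 2.24, 1.96 to 2.56) and at 729 and 1142 CPM without mixed members (ratio 1.57, 1.37 to 1.79), below the size rule. Members with 3 or more UMIs of any neutrophil, T, NK, B cell, plasmacytoid or cDC1 list count as carrying other leukocyte markers. Among the 20 and 36 members left without them, the log2 ratio of Ccl17 was -0.79. The cDC1 list holds Batf3, detected in 35.3% and 48.3% of members that were not mixed, so the setting does not remove other leukocytes alone. After thinning each member to 1000 UMIs, Ccl17 was seen in 17.5% of control members (9.05 to 29.1) and 27.8% of haplodeficient members (19.2 to 37.9), against 25.4% and 42.3% before thinning. The intervals overlapped. Ccl22 was 251 and 156 CPM without mixed members, in 6 of 51 and 24 of 89 members. Of the 105 control UMIs, 70 lay in 1 member and 28 in the next, while no haplodeficient member exceeded 21.

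**Figure D5:**
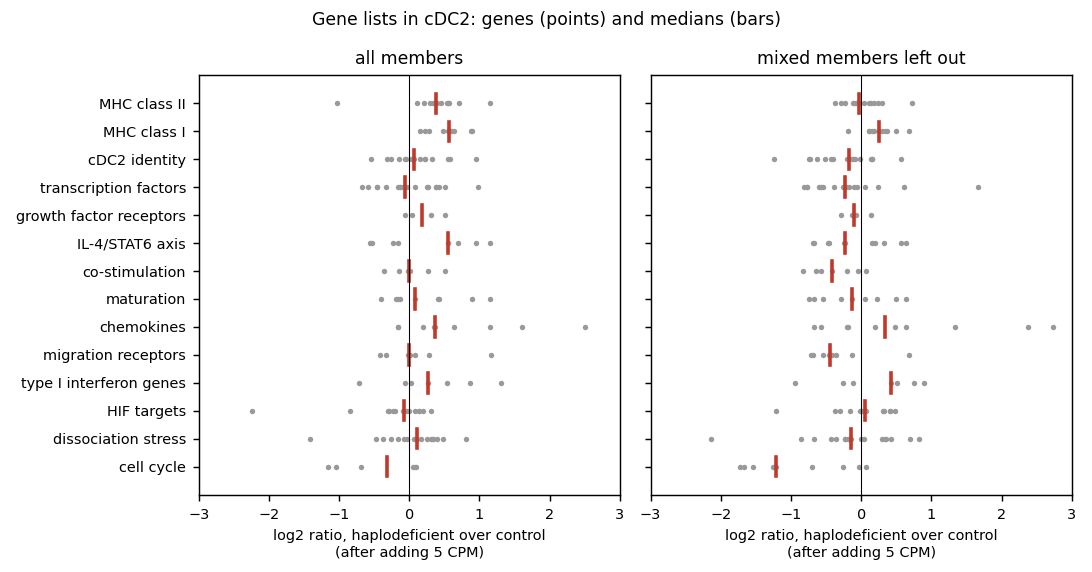
Log2 ratio of haplodeficient over control (after adding 5 CPM) for the eligible genes of 14 lists, with all members (left) and with mixed members left out (right); grey points are genes and red bars list medians. The class II median is 0.38 on the left and -0.04 on the right, and the cell cycle median -0.32 and -1.22.

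Co-stimulatory and migration genes were mostly lower without mixed members, beside 56.2% of all eligible genes, and their medians were near 0 with all members. Of 7 eligible co-stimulatory genes 6 were lower (median -0.42), with Cd86 at 879 and 495 CPM (ratio 0.563, 0.486 to 0.652), Cd80 at 346.5 and 219 CPM and Cd83 at 1073 and 803 CPM, none meeting the size rule. With all members the list median was 0.00. Cd86 and Cd80 were lower in the haplodeficient macrophages also, with log2 ratios of -0.47 and -0.76. Of 8 migration genes 7 were lower (median -0.44), among them the receptor Ccr2 (370 and 288 CPM), while Ccr1 was 55.0 and 90.7 CPM. With all members the migration median was 0.00 and Ccr1 met the size rule (31.7 and 77.4 CPM).

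Il1r2, the decoy receptor of interleukin-1, met the size rule in both sets. It was 321 CPM in the control and 157 CPM in the haplodeficient members (ratio 0.489, 0.395 to 0.605), and 550 and 177 CPM without mixed members (ratio 0.323, 0.259 to 0.401). It was present in 34 of 51 and 33 of 89 members, with at most 28 and 17 UMIs each. In all other kept barcodes Il1r2 was on the other side, at 5.76 and 30.5 CPM. Il1b, the cytokine that Il1r2 binds, stood at 3448 and 3046 CPM without mixed members, in 45 of 51 and 78 of 89 of them. Tlr2, a receptor for bacterial lipoproteins, was 122 and 48.0 CPM and met the rule without mixed members, and the co-receptor Cd14 was 483 and 253.5 CPM.

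Without mixed members most cell cycle genes were lower in the haplodeficient library, and with all members 3 of 6 were. Starting from all members, the list median was above 0 in 2 settings: 0.13 without members carrying other leukocyte markers, and 0.05 with the highest member of each gene left out. In the latter the log2 ratio was -1.10 for Mki67 and -1.23 for Top2a. Without mixed members 8 of 9 eligible genes were lower (median -1.22), beside 56.2% of all eligible genes (median -0.09). Beside 3.38% of all eligible genes, 5 of the 9 met the size rule downward. These were Top2a (167 and 49.4 CPM; ratio 0.295, 0.193 to 0.446), Mki67 (127 and 40.0 CPM; ratio 0.316, 0.195 to 0.504), Cenpf (90.8 and 24.0 CPM), Birc5 (93.2 and 36.0 CPM) and Hmgb2 (509 and 216 CPM), genes of chromatin and mitosis. The replication clamp Pcna (69.3 and 68.0 CPM) and Stmn1, a tubulin regulator (139 and 145 CPM), were close. With all members the list median was -0.32, and Mki67 and Top2a met the rule, beside 7.59% of all eligible genes called lower. In C1q-high macrophages Mki67 and Top2a lay on the other side, with log2 ratios of 0.71 and 0.64. The difference between the cell types was not tested.

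At least 1 UMI of Mki67 or Top2a was found in 19 of 63 control members (30.2%, 19.2 to 43.0) and 15 of 97 haplodeficient members (15.5%, 8.92 to 24.2). None of these was mixed, so the shares without mixed members were 37.3% (24.1 to 51.9) and 16.9% (9.75 to 26.3). Both pairs of intervals overlap. These members had median depths of 9611 and 9093 UMIs against 7519 and 7835.5 in the rest, and cycling is not read from these 2 genes alone. In them Mgl2, which the rule did not use, stood at 1218 and 896 CPM.

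In each of the interferon, oxygen-sensing, HIF target and stress lists at most 1 gene met the size rule in either set. Over all eligible genes 8.58% met it with all members and 4.32% without mixed members. The lists are too short to be set apart from these shares. Of 7 eligible type I interferon-stimulated genes 4 were higher without mixed members (median 0.42), with Ifitm3, an antiviral membrane protein, at 1219 and 2272 CPM (ratio 1.86, 1.69 to 2.06). With all members 5 of 7 were higher (median 0.27) and Ifitm3 met the size rule, at 837 and 2072 CPM. Egln3, the gene floxed in the haplodeficient mice, had 2 UMIs in the control members, both in 1 mixed member, and 0 in the haplodeficient members. The counts are too few and the Cre is driven by an endothelial promoter, so these cells cannot check the label. Hif1a was 95.6 and 107 CPM. Of 13 eligible HIF targets 8 were higher without mixed members (median 0.05), and the glucose transporter Slc2a1 alone met the rule, lower at 81.3 and 32.0 CPM. With all members 5 of 14 were higher (median -0.07), and Ndrg1 met the rule in that set, at 533 and 109 CPM, with 157 control UMIs in 1 member. Hspa1b, a heat shock protein, was 93.2 and 17.3 CPM, the 1 call among 17 stress genes (median -0.14, and 0.11 with all members, where Hspa1b was again the 1 call).

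The members were not uniform. By Ccr7 and Fscn1, a chemokine receptor and an actin-bundling protein of migrating dendritic cells, 10 of 63 control (15.9%, 7.88 to 27.3) and 13 of 97 haplodeficient members (13.4%, 7.33 to 21.8) were mature with at least 2 UMIs. Without mixed members these were 9 and 12. Other genes of maturation, which the split did not use, were higher in them. Ccl22 was 1284 against 20.5 CPM in mature and other control members and 645 against 56.2 CPM in haplodeficient ones, and Ccl17 was 3026 against 216 and 3145 against 733 CPM. The control levels of both rested on few mature members. Of 105 control Ccl22 UMIs, the highest member held 70 and the next 28. Of 305 control Ccl17 UMIs, the highest member held 168. In the haplodeficient library the highest member held 21 of 117 Ccl22 UMIs and 266 of 856 Ccl17 UMIs. Il4i1, an amino acid oxidase, was 327.5 against 8.77 and 346 against 45.0 CPM, and Cd86 was 1480 against 745 and 770.5 against 439 CPM. Lyz2 went the other way, at 78.6 against 585 and 86.5 against 636 CPM, as did Ccr2 (78.6 against 435.5 and 134 against 320 CPM).

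Ccl5 was concentrated in the mature members: 58 of 74 control UMIs and 653 of 703 haplodeficient UMIs lay in them without mixed members, at 760 and 5134 CPM. Among the others it was 46.8 and 80.3 CPM. The haplodeficient level in mature members rested mostly on the highest member, with 405 Ccl5 UMIs, and the next, with 135. No control member exceeded 16 Ccl5 UMIs. The higher Ccl17 of the haplodeficient library lay among the members that were not mature, where it was 216 CPM in 12 of 42 control and 733 CPM in 32 of 77 haplodeficient members. In the mature members it was 3026 and 3145 CPM. Plac8 was likewise found in members that were not mature, at 35.1 CPM in 3 of 42 and 300.5 CPM in 26 of 77.

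Members admitted by Flt3 alone stood apart from those with Cd209a. Without mixed members there were 12 and 16 with Flt3 only, 28 and 51 with Cd209a only, and 11 and 22 with both. Mgl2 or Clec10a was detected in 4 of 12 and 7 of 16 Flt3-only members against 27 of 28 and 48 of 51 Cd209a-only members. Mgl2 was 220 and 147 CPM against 1695 and 1962 CPM, and Lyz2 0 and 28.0 CPM against 816 and 897 CPM. Ccr7 was 565 and 545 CPM in Flt3-only members against 89.7 and 29.9 CPM, and Fscn1 617 and 594 CPM against 0 and 2.49 CPM. In the haplodeficient library the Flt3-only members also held 72 of the 88 Irf8 UMIs (503 CPM) and 92 of the 192 Plac8 UMIs (643 CPM). In the control library they held 4 of 14 and 10 of 16. Members with Cd209a thus carried the lectin and myeloid genes in both libraries, and the Irf8 difference lay mostly in the members without Cd209a. The name cDC2 is less borne out for the Flt3-only members. They stay in the main comparisons, those of Irf8 and Plac8 among them.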

How the data were processed

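Per the labels' protocols, injured kidneys were dissociated with an enzyme kit, strained and captured with 3′ v3.1 droplet chemistry. A hashing library is mentioned in the protocol and was not analysed here. The deposited matrices hold raw UMI counts of 32285 genes for 1342632 control and 1430043 haplodeficient barcodes. They were made with Cell Ranger on mm10 per the submitters' processing notes, version 4 per the file headers, and nothing in them was normalized. Total counts were 134190236 and 114668145 UMIs.

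The filters on barcodes removed 574 control and 30 haplodeficient barcodes by mitochondrial share. UMIs were summed over members and divided by their total (CPM) with numpy 2.4.6, pandas 2.3.3 and scipy 1.17.1. Doublets were scored with Scrublet (scanpy 1.11.5), which marked 7 control and 6 haplodeficient members at 0.8% per 1000 barcodes. These members stayed in, with their removal as an alternative. Of 428 symbols in 32 lists, 4 are not in the files. The members and lists were chosen with earlier results of these data known. Named genes were the rule genes, Retnla and Mucl1, list genes meeting the size rule, up to 4 further genes a list, the 15 highest and 15 lowest called ratios and the 20 most particular genes. Genes called only without mixed members, and genes held by 1 member, were named after their values were seen. The scripts were tested on simulated data. A few genes are not reported here.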

Additional observations from a re-analysis of the deposited data

Results flagged for a closer look

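Retnla and Mucl1 appeared in data that no comparison between cells uses, the barcodes of 1 to 100 UMIs that hold free RNA. In the haplodeficient library free RNA held Retnla at 55.1 CPM and Mucl1 at 3.82 CPM, against 4.71 and 0.314 CPM in the control library. The members' own levels, 2.18 CPM for Retnla and 4.36 CPM for Mucl1 in the haplodeficient library, were near or below these values.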

How the results depend on the processing

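No paired analysis was possible because each group has 1 library, and for the same reason no library could be left out. The share of members (0.667% and 0.967% of kept barcodes) was 0.476% and 0.698% with at least 2 Cd209a and Flt3 UMIs, 0.487% and 0.778% without members lacking Cd209a, and 0.212% and 0.359% without members carrying other leukocyte markers. It was larger in the haplodeficient library under each of the 10 alternatives run. Genes meeting the size rule higher in the haplodeficient library (31) numbered 51 with at least 2 Cd209a and Flt3 UMIs, 53 without mature members, 16 after thinning to 1000 UMIs, 18 with a pseudocount of 20 CPM, 67 with a minimum mean of 10 CPM and 93 with free RNA subtracted. Those lower (238) numbered 152 with at least 20 class II UMIs, 128 without other leukocyte markers, 93 without mixed members, 24 after thinning, 114 with a mean of per-cell CPM, 585 with a minimum mean of 10 CPM and 153 with the highest member of each gene left out. Thinning left 754 eligible genes and leaving out members with other leukocyte markers 1757. The cause of the other shifts was not tested.

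Log2 ratios that reversed were those of Ccl5 (-0.64), Car15 (-2.43) and Defb1 (-0.95) with at least 2 Cd209a and Flt3 UMIs. Without members carrying other leukocyte markers, they were those of Ccl17 (-0.79), Klk1 (-1.17), Frmpd4 (1.48), Fxyd4 (0.92) and Phactr1 (-1.17). Without mixed members they were those of Bnc2 (0.62), Frmpd4 (0.053), Fxyd4 (1.05) and Hsd11b2 (0.053), and without likely doublets Fxyd4 (0.37) and Hsd11b2 (0.35). Phactr1 also reversed without mature members (-2.00), without members lacking Cd209a (-2.07), after thinning (-0.45) and with its highest member left out (-1.01). Fbp1 reversed with free RNA subtracted (0.82) and Lgmn after thinning (0.11). The cell cycle median, -0.32, ran from -1.22 without mixed members to 0.13 without members carrying other leukocyte markers, and was 0.05 with the highest member of each gene left out.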
